A study of Mus musculus with 6 samples.

Results

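The Sprouty, Spred and DUSP feedback genes were examined as a set of 9 genes: Spry1, Spry2, Spry4, Spred1, Spred2, Spred3, Dusp4, Dusp5 and Dusp6. The members were taken by exact symbol from gene count tables of mouse cells that the labels call melanoma cells, and all 9 were found among the 24391 genes listed. All 9 also passed the low-count filter, which left 14579 genes for testing. Ear tumours of iBIP mice were the source of the cells. These mice carry Tyr-CreERT2, Rosa26-rtta, a doxycycline-driven TetO transgene of mutant BRAF and floxed alleles, among them INK/ARF L/L, on a mixed FVB and B6 background. The Cre is driven by the tyrosinase promoter and was activated by 4-OHT on the ear, and the mice received doxycycline. Both groups share these alleles and treatments. KMT2D WT (3 libraries) is iBIP with wild-type Kmt2d, and KMT2D KO (3 libraries) is iBIP with 2 floxed Kmt2d alleles. The labels give neither the age of the mice nor how many tumours, mice or cultures stand behind the 3 libraries of a group. All p-values therefore rest on how these libraries vary, possibly for technical reasons alone. The Kmt2d genotype and the tumour of origin cannot be told apart.

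These genes encode brakes on the signalling route from receptor tyrosine kinases through RAS, RAF and MEK to the kinase ERK. Sprouty proteins act near the receptors and RAS. Spred proteins bind neurofibromin and bring this RAS inactivator to the membrane, and the dual-specificity phosphatases of the DUSP group remove the activating phosphates from ERK itself. Many of these genes are switched on by ERK activity, so that they form negative feedback loops, and in BRAF-mutant melanoma cells several of them are widely read as transcripts of ERK output.

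Total counts of the KMT2D WT libraries were 43168605 to 59360068, and those of the KMT2D KO libraries 55594979 to 79718782. Kmt2d itself, read over the whole gene, gave 79.7, 87.6 and 101 CPM (the count relative to the library size after TMM scaling) in KMT2D WT and 73.0, 69.3 and 79.8 CPM in KMT2D KO, so the libraries overlapped although the gene was called lower (log2 fold change -0.27, SE 0.08, edgeR adjusted p = 0.0075). Counts over the whole gene cannot tell if the floxed exons are gone. The labelled melanoma origin was set against 7 melanocyte markers: Mitf had 15.4 and 53.2 CPM in KMT2D WT and KO, Pmel had 0.698 and 1.03 CPM, and Sox10, Mlana, Tyr, Tyrp1 and Dct were each under 1 CPM in both groups. Fibroblast markers were abundant in both groups and 6 of 7 were higher in KMT2D KO, with a summed level of 5747 to 5964 CPM in KMT2D WT and 21588 to 22611 CPM in KMT2D KO. Cerebellar tissue is named in the extraction text of the labels, and 5 cerebellum markers summed to at most 0.380 CPM in any library. The marker sums of other cell types were low but also moved with the group. Immune markers summed to 9.65 to 15.3 CPM in KMT2D WT against 3.06 to 3.74 CPM in KMT2D KO. Schwann cell markers summed to 5.05 to 6.17 against 1.09 to 1.41 CPM, and endothelial markers to 0.850 to 1.00 against 0.309 to 0.456 CPM. The keratinocyte marker sum went the other way, from 2.34 to 2.95 CPM in KMT2D WT to 11.02 to 12.86 CPM in KMT2D KO. Of these markers only Trp63 was called higher (0.784 to 10.2 CPM). Krt5 (0.465 and 0.375 CPM) and Krt14 (1.35 and 1.43 CPM) were not called, and Epcam was too low to be tested. The part of these marker differences in the results on the 9 genes was not tested.

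The start regions of 3 members are shown because they are the pair that rose (Spry1 and Dusp6) and the member with the largest fall among those with an entry (Spred3). RefSeq promoter windows of build GRCm38.p6, from 250 bases before to 50 bases after the annotated start, were matched for 7 of the 9 members. Each is written 5′ to 3′ on the strand of the gene, and capitals mark a motif match. The windows lie at chr3:37639697-37639996 (plus strand, Spry1), chr10:99262981-99263280 (plus strand, Dusp6) and chr7:29168598-29168897 (minus strand, Spred3).
Spry1: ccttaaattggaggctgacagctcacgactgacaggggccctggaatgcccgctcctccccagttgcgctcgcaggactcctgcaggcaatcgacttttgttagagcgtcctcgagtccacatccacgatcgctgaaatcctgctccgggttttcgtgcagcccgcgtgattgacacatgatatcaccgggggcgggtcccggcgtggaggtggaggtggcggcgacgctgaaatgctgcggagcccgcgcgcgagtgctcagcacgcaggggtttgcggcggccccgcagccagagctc
Dusp6: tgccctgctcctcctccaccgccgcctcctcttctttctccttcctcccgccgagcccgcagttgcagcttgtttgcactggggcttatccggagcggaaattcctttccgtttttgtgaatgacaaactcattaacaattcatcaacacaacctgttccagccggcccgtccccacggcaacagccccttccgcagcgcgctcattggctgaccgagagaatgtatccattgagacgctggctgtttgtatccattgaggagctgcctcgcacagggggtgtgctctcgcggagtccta
Spred3: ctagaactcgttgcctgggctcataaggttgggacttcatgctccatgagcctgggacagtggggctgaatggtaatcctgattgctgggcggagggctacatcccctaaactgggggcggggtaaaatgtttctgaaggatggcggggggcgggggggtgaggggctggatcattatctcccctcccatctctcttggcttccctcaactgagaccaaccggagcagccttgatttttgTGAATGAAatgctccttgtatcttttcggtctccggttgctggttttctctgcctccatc
The ETS motif CCGGAAGT is held by 3.89% of the 32851 promoter windows in the table, the CIC motif TGAATGAA or TGAATGGA by 2.47%, the CRE motif TGACGTCA by 1.79% and the AP-1 motif TGANTCA by 7.81%. Both strands were searched, and no one of these letter strings contains another. Among the 7 members with a window, the single match was TGAATGAA in Spred3, which begins at position -10 relative to the start. The other letter strings were not in these windows.

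The 9 members did not move as a block. In KMT2D KO, 2 were higher (Spry1 and Dusp6), 6 were lower (Spry2, Spry4, Spred1, Spred3, Dusp4 and Dusp5) and Spred2 was not called. The call was made at an adjusted p under 0.05 in the quasi-likelihood test of edgeR over all tested genes. By the same rule 71.0% of all tested genes were called, 35.4% higher and 35.5% lower, so a count of 8 called members lies near what the whole table shows. In 8 members the libraries of one group lay wholly apart from those of the other, as they did in 74.3% of all tested genes. The members' median log2 fold change (KMT2D KO minus KMT2D WT) was -0.40, against 0.00 for all tested genes, and their median absolute log2 fold change was 0.98 against 0.53. An absolute log2 fold change above 1 was reached by 4 members and by 28.1% of all tested genes. When a change beyond a log2 fold change of 1 was itself tested (glmTreat), Spry1 was called higher and Spry4, Spred3 and Dusp4 lower, where 19.4% of all tested genes were called.

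**Figure D1:**
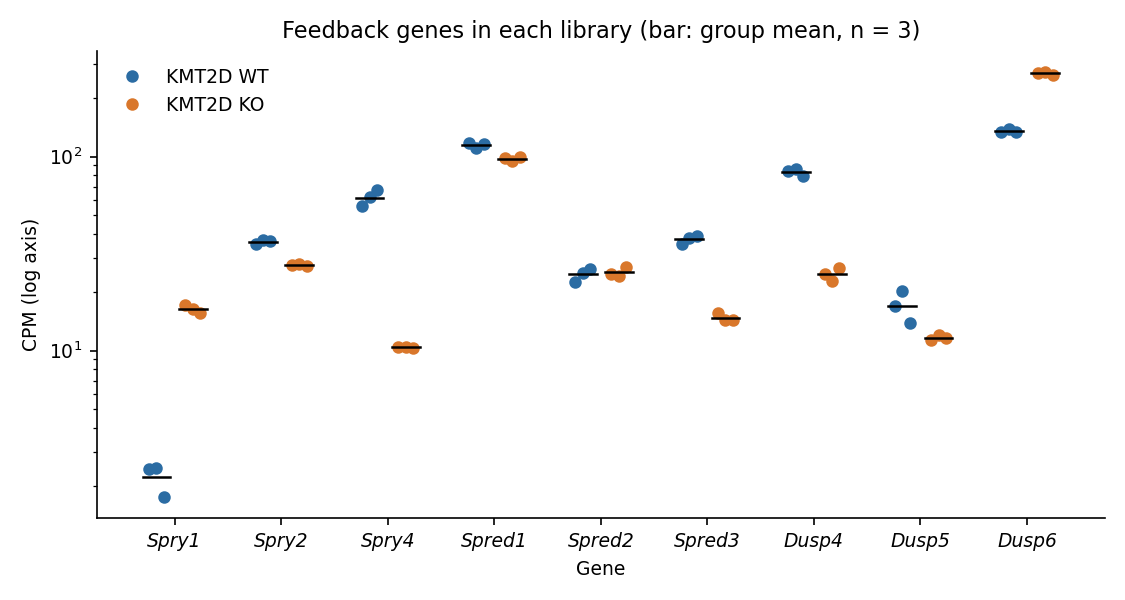
CPM of the 9 members in each of the 6 libraries on a log axis, with blue points for KMT2D WT, orange points for KMT2D KO and a bar at each group mean (n = 3). Spry1 and Dusp6 sit higher in every KMT2D KO library than in any KMT2D WT library, 6 genes sit lower, and Spred2 overlaps.

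**Figure D2:**
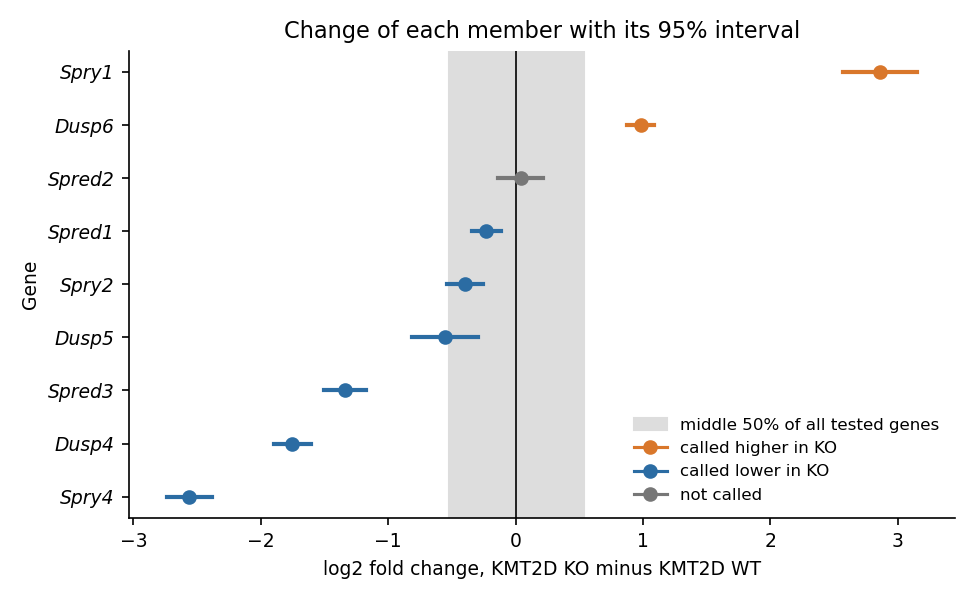
Log2 fold change of each member (point) with its 95% confidence interval from the edgeR fit (line), ordered by size, with a grey band over the middle 50% of all tested genes. The interval of Spred2 spans 0, and the ends of the order are held by Spry1 (2.86) and Spry4 (-2.56).

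The Sprouty genes changed in opposite directions. Spry1 (mm9 chromosome 3, 37538869 to 37543521, plus strand), an inhibitor of growth factor signalling known for its part in kidney development, had 2.46, 2.47 and 1.77 CPM in KMT2D WT (replicates in the order 1, 2, 3, here and throughout) and 17.2, 16.3 and 15.6 CPM in KMT2D KO. Every KMT2D KO library lay far above every KMT2D WT library. The means were 2.23 ± 0.404 and 16.4 ± 0.802 CPM (SD, n = 3), 7.33-fold higher in KMT2D KO (edgeR adjusted p = 7.8e-11, log2 fold change 2.86 with SE 0.14). In a bulk sample, more cells that express a gene and more RNA per cell cannot be told apart. Spry1 rose as the summed fibroblast markers given above did, but so did every gene called higher, 35.4% of all tested genes. The part of these markers in the result was not tested.

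Spry4 (mm9 chromosome 18, 38745919 to 38760922, minus strand), a Sprouty gene that responds strongly to ERK activity, showed the reverse. It had 55.3, 61.9 and 67.1 CPM in KMT2D WT and 10.4, 10.5 and 10.3 CPM in KMT2D KO. The KMT2D KO libraries were nearly equal and all lay below the KMT2D WT libraries. Means of 61.5 ± 5.89 and 10.4 ± 0.0767 CPM (SD, n = 3) gave a 5.90-fold lower level (log2 fold change -2.56, SE 0.08, adjusted p = 7.8e-13).

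Spry2 (mm9 chromosome 14, 106291164 to 106296036, minus strand), which binds the ubiquitin ligase CBL and the adaptor GRB2, moved far less. Its 35.4, 37.0 and 36.6 CPM in KMT2D WT stood against 27.7, 27.9 and 27.2 CPM in KMT2D KO. The spread inside each group was narrow, with coefficients of variation of 2.36% and 1.27%, and the groups did not overlap. Spry2 fell 1.32-fold (log2 fold change -0.40, SE 0.07, adjusted p = 8.2e-05). Spry3, the remaining Sprouty gene, had no count in any library, which allows up to 3 counts over the libraries of a group. Its gene model is listed on X_random, not on chromosome X, and whether fragments could be placed there was not tested.

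Among the Spred genes, Spred3 changed most. Spred3 (mm9 chromosome 7, 29943848 to 29953666, minus strand), the family member without a functional KIT-binding domain, had 35.2, 38.2 and 38.8 CPM in KMT2D WT and 15.6, 14.5 and 14.4 CPM in KMT2D KO. All 3 KMT2D KO libraries were below the lowest KMT2D WT library. Spred3 fell from 37.4 ± 1.92 to 14.8 ± 0.660 CPM (SD, n = 3), a 2.53-fold lower level (log2 fold change -1.34, SE 0.08, adjusted p = 7.8e-10).

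Spred1 (mm9 chromosome 2, 116946807 to 117008013, plus strand), the gene mutated in Legius syndrome, was the most abundant Spred gene in both groups. It had 117, 110 and 116 CPM in KMT2D WT and 98.7, 94.7 and 99.7 CPM in KMT2D KO. The groups lay close together without overlap, 1.17-fold apart (log2 fold change -0.23, SE 0.05, adjusted p = 0.0013). Spred2 (mm9 chromosome 11, 19824445 to 19922600, plus strand), its near relative, had 22.7, 25.1 and 26.3 CPM in KMT2D WT and 24.9, 24.1 and 27.1 CPM in KMT2D KO. These libraries overlapped, and Spred2 was not called (adjusted p = 0.68), its log2 fold change being 0.04 with a 95% interval of -0.14 to 0.22.

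Of the ERK phosphatase genes, 1 rose and 2 fell. Dusp6 (mm9 chromosome 10, 98725865 to 98730123, plus strand) encodes a cytoplasmic phosphatase selective for ERK. It had 134, 139 and 135 CPM in KMT2D WT and 269, 273 and 264 CPM in KMT2D KO. Within each group the libraries differed little (coefficients of variation of 1.97% and 1.62%), and the gene rose 1.98-fold, from 136 ± 2.68 to 269 ± 4.37 CPM (SD, n = 3; log2 fold change 0.98, SE 0.05, adjusted p = 1.5e-10).

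Dusp4 and Dusp5 encode phosphatases of the nucleus, and both were lower in KMT2D KO. Dusp4 (mm9 chromosome 8, 35870664 to 35882948, plus strand) had 84.4, 85.9 and 79.9 CPM in KMT2D WT and 24.8, 23.0 and 26.5 CPM in KMT2D KO. With means of 83.4 ± 3.14 and 24.8 ± 1.79 CPM (SD, n = 3) it was 3.37-fold lower (log2 fold change -1.75, SE 0.07, adjusted p = 7.2e-12), with a wide gap between the groups. Dusp5 (mm9 chromosome 19, 53603808 to 53615812, plus strand), whose product is specific to ERK, had 17.03, 20.2 and 13.8 CPM in KMT2D WT and 11.3, 12.0 and 11.6 CPM in KMT2D KO. The KMT2D WT libraries were scattered, with a coefficient of variation of 19.0% against 3.04%, and the lowest of them lay near the KMT2D KO libraries. Dusp5 was 1.46-fold lower (log2 fold change -0.55, SE 0.12, adjusted p = 0.00086). Its log2 fold change was -0.41 without KMT2D WT replicate 2 and -0.68 without KMT2D WT replicate 3, and it was called each time.

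To set genes beside each other, CPM were divided by the exon length of each gene model. The counted Dusp5 model is 1155 bases long, its coding sequence alone, while the other 8 models also hold untranslated exon sequence. No exon base of a member was shared with another gene of the tables. In KMT2D WT the order of the levels ran from Dusp6 (48.6 CPM per kb) over Dusp4 (34.4), Spry2 (17.4), Spred1 (16.2), Dusp5 (14.7), Spry4 (13.4), Spred3 (9.23) and Spred2 (8.59) to Spry1 (0.896). Libraries overlapped between the neighbours Spred1 and Dusp5, Dusp5 and Spry4, and Spred3 and Spred2. In KMT2D KO the order ran from Dusp6 (96.1 CPM per kb) over Spred1 (13.8), Spry2 (13.2), Dusp4 (10.2), Dusp5 (10.1), Spred2 (8.83), Spry1 (6.57) and Spred3 (3.65) to Spry4 (2.27). There the overlapping neighbours were Spred1 and Spry2, and Dusp4 and Dusp5. Dusp6 headed the order in both groups, while Spry1 stood last in KMT2D WT and Spry4 last in KMT2D KO. Of all tested genes, 90.4% had a lower level per kb than Dusp6 in KMT2D WT and 95.5% in KMT2D KO.

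The summed level of all 9 members was almost the same in both groups, while its parts were not. The sum was 161, 169 and 161 CPM per kb in KMT2D WT and 165, 165 and 164 CPM per kb in KMT2D KO. The Sprouty sum was lower in KMT2D KO (22.1 ± 0.457 against 31.7 ± 1.51 CPM per kb, SD, n = 3), as was the Spred sum (26.3 ± 0.873 against 34.0 ± 1.04). The sum of Dusp4, Dusp5 and Dusp6 was higher (116 ± 1.00 against 97.7 ± 4.85). These sums are descriptions and were not tested.

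**Figure D3:**
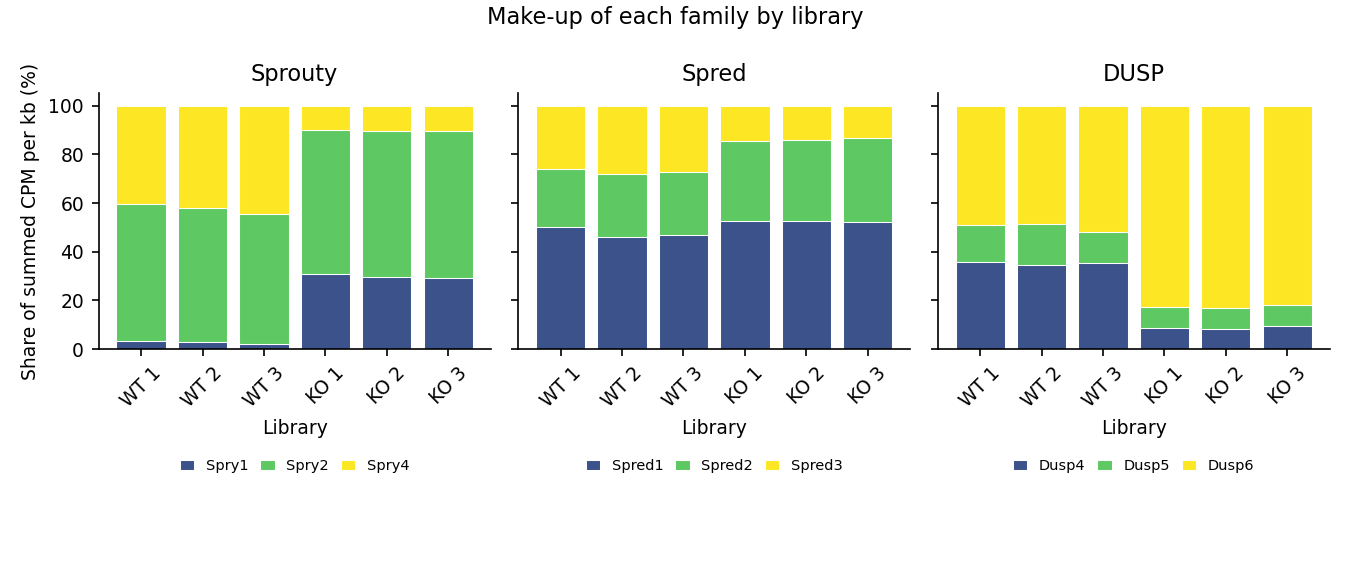
Share of each gene in the summed CPM per kb of its family (vertical axis, percent) in each of the 6 libraries (horizontal axis), for the Sprouty, Spred and DUSP members. Replicates of a group differ somewhat, as for Dusp5 in KMT2D WT (12.8% to 17.1%). The mean share of Spry1 widens from 2.84% to 29.8% of the Sprouty sum and that of Dusp6 from 49.8% to 82.6% of the DUSP sum.

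The mix of genes within each family differed between the groups. Spry4 made up 42.2% ± 2.14 of the Sprouty sum in KMT2D WT and 10.3% ± 0.148 in KMT2D KO (SD, n = 3), and Spry1 went from 2.84% ± 0.605 to 29.8% ± 0.894. The ratio of Spry4 to Spry1 per kb was 12.2, 13.6 and 20.6 in KMT2D WT and 0.330, 0.348 and 0.360 in KMT2D KO. Spry2 had a share of 55.0% ± 1.56 in KMT2D WT and 60.0% ± 0.757 in KMT2D KO. Its place above Spry4 in KMT2D WT rests on the division by exon length, without which Spry4 had 61.4% of the Sprouty counts there and Spry2 36.4%. Dusp6 had 1.38, 1.40 and 1.46 times the level of Dusp4 in KMT2D WT and 9.42, 10.3 and 8.65 times in KMT2D KO. The share of Spred3 in the Spred sum was 27.1% ± 0.854 and 13.9% ± 0.719.

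The members lie on 9 different chromosomes, and the genes around them were read out in the same test. The 5 tested genes on each side of a member together spanned from 276 kb (Spred3) to 13660 kb (Spry2), with 4925 kb for Dusp6. Of all tested genes, 35.4% were called higher and 35.5% lower. On the chromosome of Spry4 the median tested gene had a log2 fold change of -0.50, and 7 of the 10 nearest tested genes were lower, among them the growth factor gene Fgf1 next to it (-1.11). Spry4 (-2.56) was lower than each of these 10 neighbours, whose values ran from -1.11 to 1.29. Spred3 fell among neighbours of which 6 were called higher and 0 lower (median 0.45), and its closest tested neighbours Fam98c (0.74) and Ggn (0.71) were both higher. Dusp4 (-1.75) likewise lay among 6 higher and 3 lower neighbours (median 0.35). Dusp6 rose where 8 of its 10 neighbours fell and 0 rose (median -0.83). Spry1 exceeded all of its 10 neighbours, which reached 2.23 at most, with 4 higher and 4 lower.

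**Figure D4:**
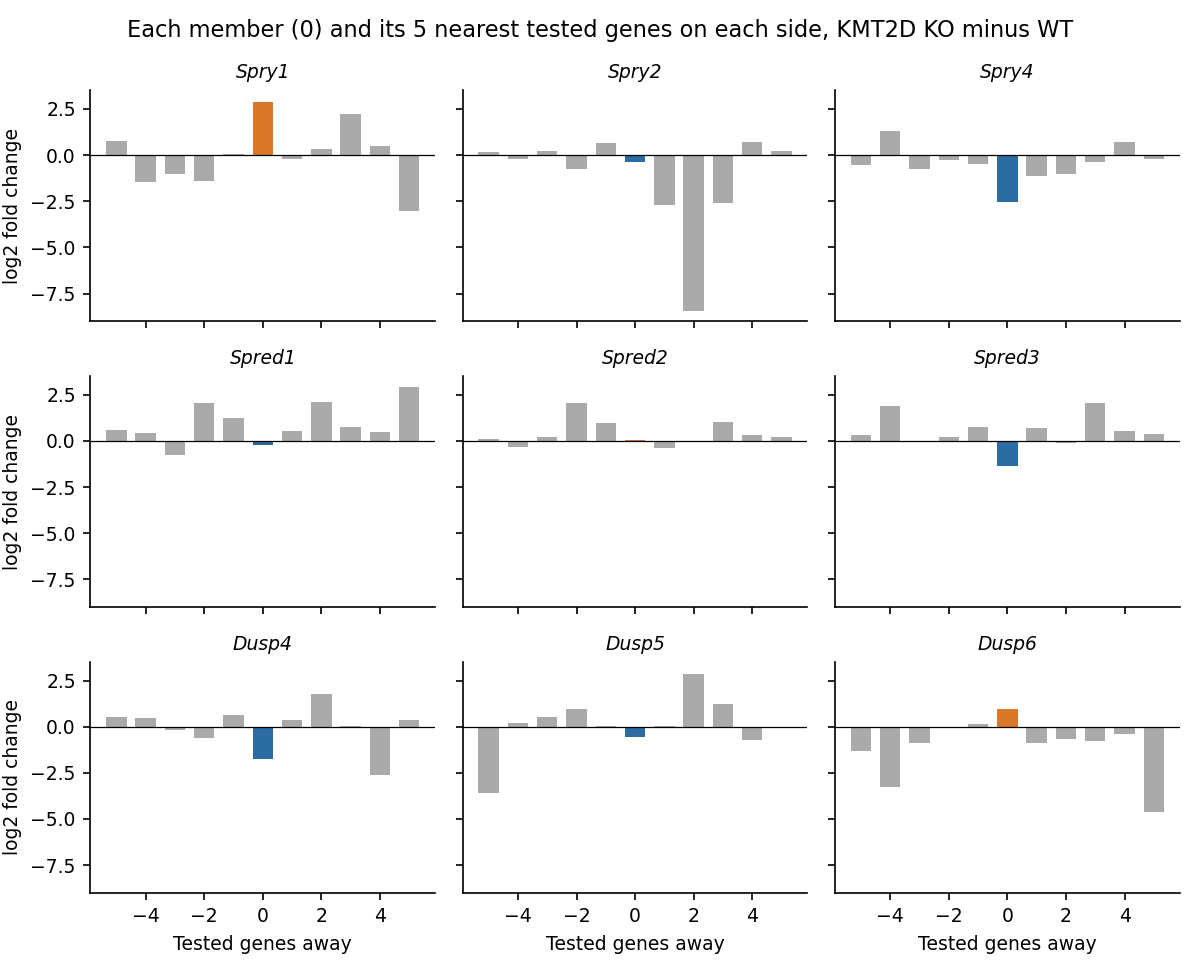
Log2 fold change (vertical axis, KMT2D KO minus KMT2D WT) of each member (coloured, at 0) and of the 5 tested genes on each side of it (grey), in order along the chromosome (horizontal axis). Spry1, Dusp6, Spry4 and Spred3 stand beyond their neighbours in their own direction.

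Genes with the closest pattern over the 6 libraries were found by the root mean square difference of centred log2 CPM among 12067 other tested genes. Spry1 was closest to Perp (difference 0.0453; 7.69 and 57.6 CPM) and Nppb (0.0888). Spry4 was closest to Nmnat2 (0.0558; 20.6 and 3.42 CPM) and Adcy5 (0.0764), and Dusp4 to Grik2 (0.0678) and Atoh8 (0.0713). Dusp6 was matched most tightly, by the kinase gene Sgk1 (0.00959; 156 and 306 CPM) and Klhdc4 (0.0142). The closest genes were Haus2 and Tob1 for Spry2, Atl3 and Rdx for Spred1, Med12 and Csrnp2 for Spred2, Bcl7b and Nkain1 for Spred3, and Tarbp2 and Pusl1 for Dusp5. With 6 libraries in 2 groups, such likeness mostly repeats the group difference.

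Of 8 other Sprouty and MAP kinase phosphatase genes, 7 were tested, of which 3 rose and 2 fell (median log2 fold change 0.47), where 35.4% of all tested genes were called higher and 35.5% lower. Dusp2 (0.73) and Dusp9 (-0.45), named after their values were seen, did not pass. Dusp1, the early-induced nuclear phosphatase of p38, JNK and ERK, had 251, 278 and 299 CPM in KMT2D WT and 729, 700 and 724 CPM in KMT2D KO (log2 fold change 1.38, adjusted p = 3.6e-11). At 142 and 370 CPM per kb it was above every one of the 9 members in both groups. Dusp10 and Dusp16, phosphatases of JNK and p38, rose by 0.73 and 0.47. Dusp8, another phosphatase of JNK and p38, fell from 7.22 ± 0.732 to 1.44 ± 0.124 CPM (SD, n = 3; -2.32). Dusp7, the cytoplasmic ERK phosphatase closest in kind to Dusp6, went the other way from it, from 48.9 ± 4.85 to 30.7 ± 1.52 CPM (-0.67, adjusted p = 2.1e-06). Genes for nuclear phosphatases thus rose (Dusp1) and fell (Dusp4, Dusp5), and genes for cytoplasmic ERK phosphatases did so as well (Dusp6, Dusp7).

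**Figure D5:**
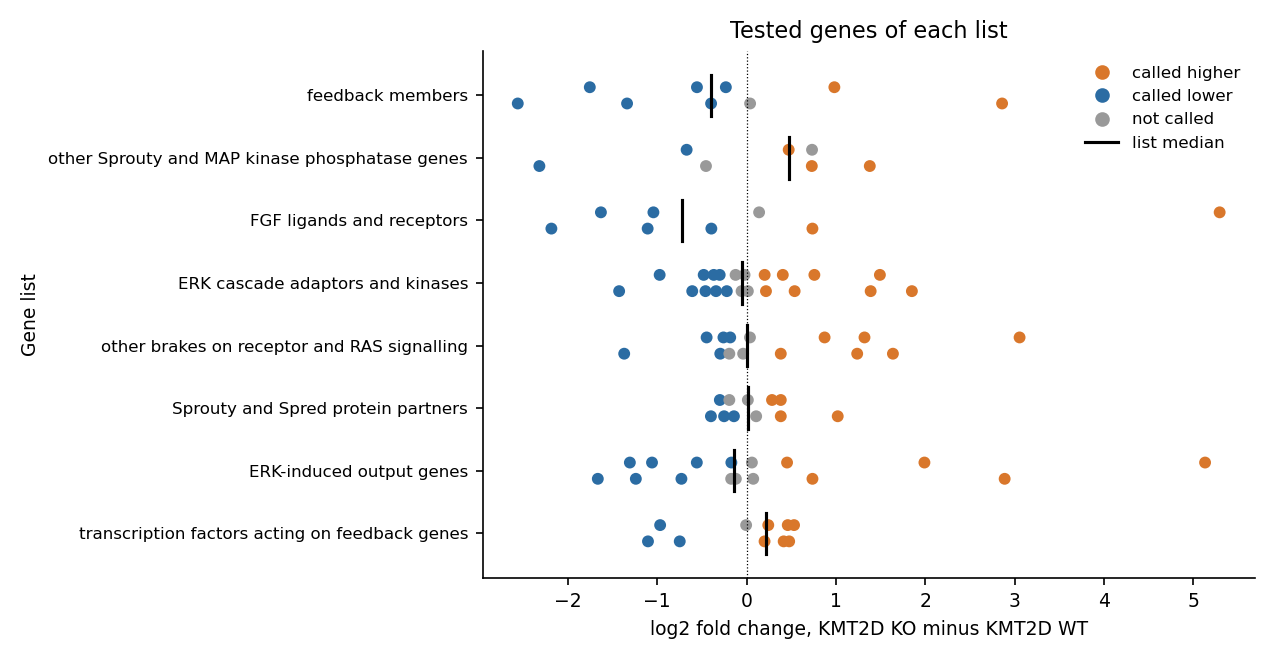
Log2 fold change (horizontal axis, KMT2D KO minus KMT2D WT) of the tested genes of 8 lists (vertical axis), coloured by call, with a black bar at each list median. Each list holds genes called higher and genes called lower, and the far right points are Fgfr2 (5.30) and Fos (5.13).

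The counts of the pathway lists are read against the whole table, where 71.0% of tested genes were called, 35.4% higher and 35.5% lower, and the median log2 fold change was 0.00. The counts are descriptions, and no list was tested against the other genes. Upstream, FGF ligands and receptors, whose signals Sprouty proteins are known to dampen, comprised 8 tested genes, of which 2 rose and 5 fell (median log2 fold change -0.72). The receptor gene Fgfr2 had 0.872, 0.452 and 0.224 CPM in KMT2D WT and 21.5, 19.6 and 22.1 CPM in KMT2D KO (5.30). Each KMT2D WT library was thus under 1 CPM. The receptor gene Fgfr1, named after its values were seen, was more abundant in both groups and was called lower (396 to 302 CPM, -0.39). The ligand gene Fgf7 rose from 546 to 911 CPM (0.74), while Fgf10 fell from 33.9 to 7.46 CPM (-2.18), Fgf1 from 5.25 to 2.45 CPM (-1.11) and Fgf2 from 1.62 to 0.787 CPM (-1.04). Of 21 adaptor and kinase genes of the cascade, 8 rose, 9 fell and 4 were not called (median -0.06). The kinase gene Rps6ka1 (1.85), the scaffold gene Ksr1 (1.49) and the adaptor gene Gab1 (1.39) rose, and Nras (-1.43), the phosphatase gene Ptpn11 (-0.97) and Mapk3, which encodes ERK1 (-0.61), fell.

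Of 14 other brakes on receptors and RAS, 6 rose, 5 fell and 3 did not pass (median log2 fold change 0.00), against 35.4% higher and 35.5% lower over all tested genes. Lrig3 rose from 4.71 to 39.5 CPM (3.06), Lrig2 from 17.6 to 54.7 CPM (1.64) and Errfi1, a feedback inhibitor of the EGF receptor, from 486 to 1214 CPM (1.32). The genes of the RAS-inactivating proteins Rasal2 (-1.37) and Rasa1 (-0.45) and the ubiquitin ligase gene Cblb (-0.29) fell. Of 11 genes for protein partners of Sprouty and Spred, 4 rose, 4 fell and 3 were not called (median 0.01). Cav1 (1.02), the neurofibromin gene Nf1 (0.38) and Siah2 (0.38) rose, and Dyrk1a (-0.40), Ppp2r1a (-0.30) and Nedd4 (-0.25) fell.

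Downstream, 16 other genes induced by ERK comprised 5 that rose and 7 that fell, at a median log2 fold change of -0.14, while Etv4, Fosl1, Myc and Lif did not pass. The early transcription factor genes Fos (36.5 to 1282 CPM, 5.13), Junb (152 to 1127 CPM, 2.89) and Egr1 (197 to 784 CPM, 1.99) were the largest rises. Epha2 (179 to 56.4 CPM, -1.66), Plaur (59.3 to 24.0 CPM, -1.31) and the ETS factor gene Etv1 (48.3 to 20.5 CPM, -1.24) were the largest falls. Of 10 tested factors that act on such feedback genes, 6 rose, 3 fell and 1 was not called (median 0.22). Elk1 (0.53), Srf (0.48) and the CIC partner gene Atxn1l (0.46) rose, and the ETS factor genes Gabpa (-1.10), Ets2 (-0.97) and Elk3 (-0.75) fell.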

How the data were processed

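RNA sequencing counts of 3 KMT2D WT and 3 KMT2D KO libraries were used. The deposited values are whole-number counts of fragments per gene, which the authors obtained by running featureCounts 1.5.2 on exons (annotation mm9, no strand option), per the file headers. The submitters' processing notes also name STAR and HTSeq, without roles. The exon length of each gene (another deposited column) was used for levels per kb. Genes were tested across the whole table in R 4.3.3 with edgeR 4.0.16 (TMM, default filter by group, quasi-likelihood F test, Benjamini-Hochberg adjustment, threshold 0.05). The procedure was also run on simulated counts in which far fewer genes changed than were called here. That run therefore does not show how the procedure behaves when most genes change. Each SE was taken as the absolute log2 fold change over the root of its F statistic. Fragments carry no molecular identifiers, so the 3-count limit covers counting error only. The members and the 7 pathway lists (89 genes) and 7 marker lists (34 genes) were chosen with earlier results of these data known. From each pathway list the text names up to 3 called genes per direction with the largest change and at least 1 CPM in the higher group, and for each member the 2 genes closest in pattern. Fgfr1, the untested Spry3 and the uncalled Dusp2, Dusp9, Etv4, Fosl1, Myc and Lif were named beyond this rule. Nearest neighbours on the chromosome were chosen after their values were seen. A further floxed allele of the iBIP mice, carried by both groups, is not reported here. The marker listed as Si was matched to Pmel. Alternatives included DESeq2 1.42.0 and limma 3.58.1 (voom). The reference annotation at hand is of build GRCm38, so only its promoter windows and coding lengths were used.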

Additional observations from a re-analysis of the deposited data

How the results depend on the processing

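The 8 called members kept their direction and call under RLE factors, library size alone, limma voom, DESeq2, robust empirical Bayes, no filter on low counts, a minimum mean of 1 CPM and without any 1 library. When glmTreat required a change beyond 1 on the log2 scale, 4 members were called (1 higher, 3 lower) and 2823 genes in all (1479 higher, 1344 lower), as the test's construction demands a larger change. The uncalled Spred2 changed sign with library size alone (-0.071), a scaling that moved the median of all genes by -0.11, and lay between -0.015 and 0.090 when single libraries were left out, the negative value being that without KMT2D WT replicate 1. The cause was not tested. Without division by length, the Spry2 share became 36.4% and 50.8% in KMT2D WT and KO, the Spry4 share 61.4% and 19.1%, and the Dusp6 share 57.5% and 88.1%, because longer models weigh more. Spry4 and Spry2 thereby change places in KMT2D WT. With the replicate number as a block, 10368 genes and the same count of 8 members were called. Deviations from the group means correlated at 0.0149, 0.00949 and 0.00846 for same-numbered libraries, too weakly to pair them, though each library correlated best with its own number. Depth limits Spry1 most, with 376 counts over the KMT2D WT libraries.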

Other observations

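The promoter windows of the 7 matched members held a median of 28 CG dinucleotides against 7 over all 32851 windows. Their median GC content was 62.7% against 52.7%. The reference was not limited to windows of tested genes, so these values do not mark a trait of the members. The members differed among themselves, from 8 CG dinucleotides in Spred3 to 40 in Spred1.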
